A study of Mus musculus with 21 samples.

Results

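Ganglion cell subtype genes are genes whose transcripts separate the kinds of retinal ganglion cell, the neurons that send the output of the retina to the brain. The 8 genes described here, a list of names set with no threshold on their values, were Opn4, Eomes, Tbr1, Jam2, Neurod2, Ebf3, Foxp2 and Satb1, out of 17164 genes with counts. The list was chosen with earlier results of these data known. All 8 passed the filter on low counts. RNA had been sequenced from cells sorted as retinal ganglion cells of C57BL/6 mice aged 6 to 7 weeks, 3 days after the optic nerve was crushed. All groups shared the strain, the crush and the day. They differed in the guide RNA given: a control guide (labelled wild-type control, 4 libraries, batch 2, male), or guides against ATF3 (5 libraries, batch 3, female), ATF4 (2 libraries, batch 1, 1 listed as female and 1 as male), CEBPG (4 libraries, batch 3, female) or CHOP, the product of Ddit3 (5 libraries, batch 3, female). All 4 targets are stress-response transcription factors of the bZIP family. Since the controls were alone in their batch, a difference of any knockout from control cannot be told apart from one between batches, nor, for ATF3, CEBPG and CHOP, from one between sexes. ATF3, CEBPG and CHOP knockouts shared batch and sex and were also compared with each other.

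Retinal ganglion cells fall into many types that differ in shape, in the visual feature they report and in the transcription factors they keep as adults. Eomes (Tbr2) is needed to form and keep the intrinsically photosensitive cells, whose photopigment melanopsin is encoded by Opn4. Tbr1 and the adhesion molecule Jam2 mark J-type cells, which respond to upward motion, and Tbr1 also marks other cells that respond to light decrease. Satb1, a chromatin organizer, shapes the dendrites of ON-OFF direction-selective cells, and Foxp2 marks the F-type cells. Neurod2, a basic helix-loop-helix factor, and Ebf3, an early B-cell factor protein, are found in subsets of ganglion cells. Several of these genes are also used outside ganglion cells: Eomes and Satb1 in lymphocytes, Ebf3, Neurod2 and Tbr1 in amacrine cells, and Jam2 in vascular endothelium.

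Control libraries held 6401446 to 11752828 counted reads each and knockout libraries 9000250 to 32776378. Among the targeted transcripts, Atf3 fell by 1.56 on the log2 scale in ATF3 knockouts (SE 0.25, adjusted p = 2.41e-05), Atf4 by 0.97 in ATF4 knockouts (SE 0.18, adjusted p = 0.000211) and Ddit3 by 0.43 in CHOP knockouts (SE 0.12, adjusted p = 0.00908). Cebpg was at 83.3 ± 7.81 CPM (counts scaled to library size, SD, n = 4) in controls and 74.6 ± 21.2 (SD, n = 4) in CEBPG knockouts. That difference did not pass (adjusted p = 0.491), so the Cebpg transcript does not check the CEBPG label. The falls of Atf3, Atf4 and Ddit3 cannot be told apart from differences between batches. Of all genes 14.8%, 14.6% and 15.4% were called lower against control in ATF3, ATF4 and CHOP knockouts. A list of general ganglion cell markers (11 genes) is called here the genes common to ganglion cells, without a claim that each is in every type. The highest in controls was Nefl, a neurofilament, at 270 ± 42.1 CPM (SD, n = 4). The glutamate transporter Slc17a6 was at 42.8 ± 11.1, Sncg at 35.7 ± 11 and Rbpms at 22.9 ± 10.3. Thy1 was at 6.43 ± 1.77 and Pou4f2, the lowest, at 1.51 ± 1.23. Pou4f2 was at 0 in all 4 CEBPG libraries. The sum of the 11 genes, to which Nefl gives the most, was 0.0445% to 0.0623% of reads in controls and 0.0498% to 0.0769% in knockouts. Its genes did not move as one: 4 rose and 5 fell in ATF3 knockouts (median log2 difference -1.07), 4 and 0 in ATF4 (0.89), 2 and 3 in CEBPG (-0.13) and 3 and 3 in CHOP knockouts (-0.54). Nefl, Chrnb3 and Nefm were at 404, 168 and 94.9 CPM in ATF3 knockouts and 270, 50.5 and 45.8 CPM in controls. By contrast Slc17a6, Sncg and Rbpms were at 20.2, 14.1 and 8.99 CPM in ATF3 knockouts. Rod genes (11 genes) were 3.12% to 4.85% of reads in controls and 0.284% to 0.737% in knockouts, and all 11 fell in each knockout. Of the CEBPG libraries, replicates 6 and 8 were far from all others and from each other on the fourth component of the log2 CPM. Their scores were -99.3 and 102 where the other 18 lay between -14.8 and 7.85. On the fifth component replicates 9 and 10 stood apart, at 54.5 and 63.0 where all others lay between -54.9 and 24.5. CEBPG values are also given from replicates 9 and 10 alone, a pair that is thus not free of such distance itself. Summed lymphocyte genes of T and NK cells (12 genes) were highest in CEBPG knockouts, at 0.1001% to 0.162% of reads, against 0.0193% to 0.0313% in ATF3 and CHOP knockouts, 0.00115% to 0.00523% in ATF4 knockouts and 0.000255% to 0.0018% in controls.

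The stretches just before the start sites of Ebf3 and Eomes are shown because Ebf3 rose against control in all 4 knockouts, whereas Eomes passed against control in CEBPG knockouts only. Both come from the RefSeq promoter table of build GRCm38.p6, run 5′ to 3′ on the gene's strand for the 250 bases before the start site, and carry each CpG in capitals.
Ebf3: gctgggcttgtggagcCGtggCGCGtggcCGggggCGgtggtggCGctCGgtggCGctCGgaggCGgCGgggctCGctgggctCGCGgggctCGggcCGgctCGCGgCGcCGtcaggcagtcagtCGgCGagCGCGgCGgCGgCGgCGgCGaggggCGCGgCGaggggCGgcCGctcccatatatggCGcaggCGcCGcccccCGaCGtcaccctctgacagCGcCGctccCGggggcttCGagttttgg
Eomes: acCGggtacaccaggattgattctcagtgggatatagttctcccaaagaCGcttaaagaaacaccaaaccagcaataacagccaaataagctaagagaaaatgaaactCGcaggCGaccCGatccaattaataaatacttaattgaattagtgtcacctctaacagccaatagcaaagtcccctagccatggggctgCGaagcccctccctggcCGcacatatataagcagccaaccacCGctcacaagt
The Ebf3 stretch (chr7:137314446-137314695, minus strand) held 80.0% G and C and 43 CpG, and the Eomes stretch (chr9:118477939-118478188, plus strand) held 46.4% and 8. The medians of all 32851 promoters in the table were 52.4% and 6 CpG. Of the 8 genes 6 matched, with 10 promoters in all. Jam2 and Foxp2 had no entry. The 300-base promoters (250 bases before to 50 after the start) were searched on both strands for the letters of 3 motifs bound by bZIP factors: TGACGTCA (CRE), TGANTCA (AP-1) and TGATGNAA (C/EBP-ATF). None of the 10 promoters held any of them, and 13.1% of all promoters did (1.79%, 7.81% and 3.97% in that order). This says only that these letters are not in these windows.

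Eomes and Opn4, the genes of the intrinsically photosensitive cells, did not move together. Eomes (chromosome 9, 118478212 to 118486132 of mm10, plus strand) was 9.05-fold higher in CEBPG knockouts than in controls and differed by less than the test could show in the other knockouts. Its levels in the controls were 5.22, 2.27, 2.13 and 0.893 CPM. The 4 CEBPG libraries had 24.8, 13.1, 28.7 and 28.9 CPM, all above every control and above every other library. The ATF3 libraries (1.07, 3.98, 2.13, 1.31 and 2.03 CPM), the CHOP libraries (2.24, 2.79, 1.39, 1.25 and 1.12 CPM) and the ATF4 libraries (3.99 and 4.7 CPM) all overlapped the controls. The log2 difference of CEBPG from control was 3.18 (SE 0.53, adjusted p = 4.3e-05, edgeR quasi-likelihood test with Benjamini-Hochberg adjustment over 16797 genes, as for every adjusted p here). Within batch 3, Eomes was also higher in CEBPG than in ATF3 knockouts (log2 difference of ATF3 from CEBPG -3.50, SE 0.48, adjusted p = 1.4e-05) and than in CHOP knockouts (3.76, SE 0.49, adjusted p = 4.58e-06). All 3 calls were kept under every alternative that was run, with 3.48 (adjusted p = 8.03e-05) against control, -3.78 (adjusted p = 4.48e-05) and 4.06 (adjusted p = 1.4e-05) from CEBPG replicates 9 and 10 alone. ATF3, ATF4 and CHOP knockouts differed from control by -0.32 (SE 0.47), 0.72 (SE 0.59) and -0.58 (SE 0.47), with adjusted p = 0.649, 0.393 and 0.377. The T and NK cell genes moved with Eomes: all 12 rose in CEBPG knockouts against control, 9 were lower in ATF3 than in CEBPG knockouts and 11 higher in CEBPG than in CHOP knockouts. Klrb1c, an NK cell receptor, and Prf1, which encodes perforin, were at 0 in all 4 controls. The genes also rose where Eomes was not called, 12 of 12 in ATF3, 5 in ATF4 and 11 in CHOP knockouts. Their part in the Eomes difference was not tested, and in sorted bulk cells a change in the number of cells of a type and in the RNA per cell cannot be told apart.

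Opn4, which encodes melanopsin (chromosome 14, 34590618 to 34600142, minus strand), was lower in CHOP knockouts and varied widely among the controls. Its control levels were 25.8, 8.75, 47.0 and 15.8 CPM. In the CHOP libraries it was at 4.06, 0, 4.05, 1.55 and 2.41 CPM, all below the lowest control, where 0 reads allows up to the level of 3 reads, 0.0941 to 0.21 CPM in CHOP libraries (counting error only). Opn4 fell by 3.35 on the log2 scale in CHOP knockouts (SE 1.05, adjusted p = 0.0155). That call was lost without control replicate 7, the highest control (-2.83, adjusted p = 0.057). The ATF3 libraries, at 1.96, 8.26, 1.03, 2.04 and 7.98 CPM, were also all below the controls, but the difference of -2.52 (SE 1.01) did not pass (adjusted p = 0.0579). It passed when only the ATF3 and control libraries were fitted (-2.55, adjusted p = 0.00266). CEBPG libraries divided into 2 at 0 (replicates 6 and 10) and 2 at 9.05 and 10.5 CPM, overlapping the controls (-2.29, SE 1.08, adjusted p = 0.109, and -2.17, adjusted p = 0.201, from replicates 9 and 10 alone). Both ATF4 libraries, at 22.9 and 18.1 CPM, lay within the control range (-0.25, SE 1.28, adjusted p = 0.915). Differences in Opn4 among the ATF3, CEBPG and CHOP groups did not pass (adjusted p = 0.905, 0.846 and 0.482 for ATF3 against CEBPG, ATF3 against CHOP and CEBPG against CHOP).

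**Figure D1:**
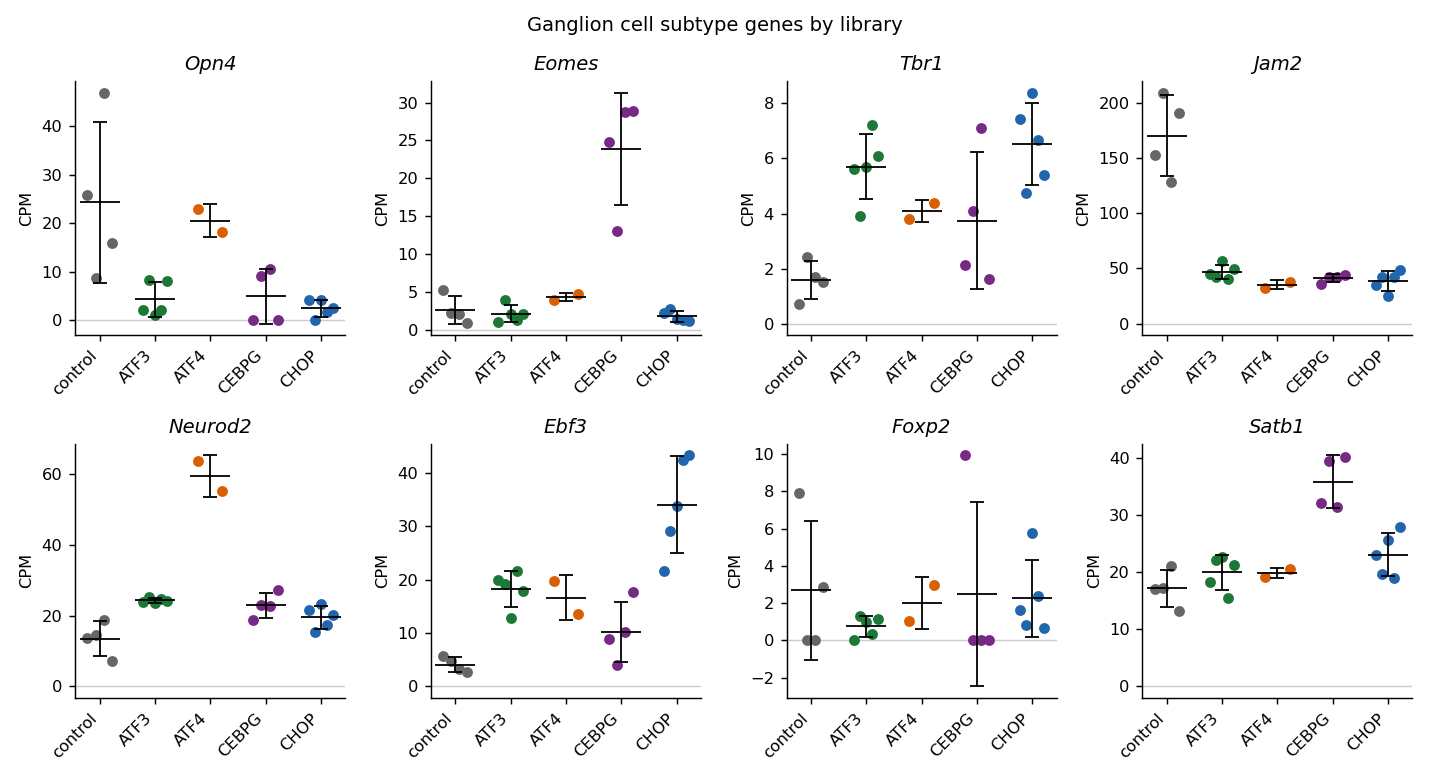
Level of each of the 8 genes in every library, in CPM on linear axes, by group, with a point per library, a wide line for the group mean and bars for 1 SD. Eomes and Satb1 are highest in the CEBPG libraries, Neurod2 is highest in the 2 ATF4 libraries, Ebf3 is highest in the CHOP libraries, and Jam2 is at 128 to 209 CPM in controls against 25.0 to 56.5 CPM in all knockout libraries.

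Jam2 and Tbr1, which both mark J-type cells, moved in opposite directions. Jam2, an immunoglobulin-family adhesion molecule of cell junctions (chromosome 16, 84774123 to 84825928, plus strand), was 3.64- to 4.82-fold lower in the knockouts. It stood at 152, 209, 128 and 191 CPM in the controls. Levels were 45.1, 42.1, 56.5, 40.8 and 49.3 CPM in ATF3 libraries, 32.5 and 38.04 CPM in ATF4 libraries, 35.7, 42.7, 42.1 and 44.3 CPM in CEBPG libraries and 34.8, 42.5, 25.0, 41.9 and 48.8 CPM in CHOP libraries. The highest knockout library, at 56.5 CPM, was far below the lowest control. Jam2 fell by 1.86 on the log2 scale in ATF3 (SE 0.17, adjusted p = 1.17e-08), by 2.27 in ATF4 (SE 0.25, adjusted p = 3.76e-07), by 2.04 in CEBPG (SE 0.19, adjusted p = 7.04e-09) and by 2.14 in CHOP knockouts (SE 0.17, adjusted p = 1.53e-09). From CEBPG replicates 9 and 10 alone the difference was -1.94 (adjusted p = 1.87e-06). These 4 comparisons share the same 4 controls. Among the 3 knockouts of batch 3 no Jam2 difference passed (log2 differences 0.18, 0.28 and 0.09, SE 0.17, 0.16 and 0.17, adjusted p = 0.508, 0.536 and 0.741). Rod genes fell in the same comparisons (above). Genes of endothelium, a known source of Jam2, and pericytes (10 genes) summed to 0.0228% to 0.0326% of reads in controls and 0.0129% to 0.0359% in knockouts. Kdr gave most of that sum, at 212 ± 41.5 CPM (SD, n = 4) in controls, where Pecam1 and Cldn5 were at 4.28 and 2.8 CPM. The sum thus mainly follows Kdr. Of the 10 genes 2, 1, 1 and 1 were higher and 0, 0, 1 and 0 lower in ATF3, ATF4, CEBPG and CHOP knockouts. The part of rods or of endothelium in the Jam2 difference was not tested.

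Tbr1, a T-box transcription factor (chromosome 2, 61802930 to 61814114, plus strand), was higher in ATF3 and CHOP knockouts. The controls had 0.72, 2.43, 1.7 and 1.52 CPM. The ATF3 libraries had 5.6, 3.92, 5.68, 7.2 and 6.1 CPM and the CHOP libraries 7.42, 4.74, 8.39, 6.69 and 5.41 CPM, all above the highest control. The log2 rise was 1.85 in ATF3 (SE 0.49, adjusted p = 0.00456) and 2.05 in CHOP knockouts (SE 0.49, adjusted p = 0.00207). Both ATF4 libraries, at 3.82 and 4.38 CPM, also lay above the controls, without passing (1.38, SE 0.58, adjusted p = 0.0752). The CEBPG libraries ranged most widely, with 2.13, 4.1, 7.09 and 1.62 CPM in replicates 6, 8, 9 and 10, and overlapped the controls (1.26, SE 0.50, adjusted p = 0.055). From CEBPG replicates 9 and 10 alone it passed (1.51, adjusted p = 0.0377). It also passed without CEBPG replicate 10 (adjusted p = 0.0218), without CEBPG replicate 6 (adjusted p = 0.03) and without control replicate 5 (adjusted p = 0.0438). Scaling all libraries to the sum of the genes common to ganglion cells, in place of all genes, ended the call in ATF3 knockouts (1.27, adjusted p = 0.054). Nefl gives the most to that sum and was higher in ATF3 knockouts than in controls, whereas Slc17a6, Sncg and Rbpms were lower. The scaled value therefore does not speak for each of these genes. The Tbr1 difference did not pass between ATF3 and CHOP knockouts (-0.20, SE 0.42, adjusted p = 0.938) or between ATF3 and CEBPG knockouts (0.60, SE 0.45, adjusted p = 0.387). CEBPG stood 0.79 below CHOP without passing (log2 difference -0.79, SE 0.46, adjusted p = 0.213), and that difference passed without CEBPG replicate 9 (-1.30, adjusted p = 0.0485). Of the 12 amacrine genes 9 rose in ATF3 and 9 in CHOP knockouts, where Tbr1 rose, and 9 in ATF4 and 8 in CEBPG knockouts (1 fell), and their part in the Tbr1 difference was not tested.

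Satb1, of the direction-selective cells (chromosome 17, 51736187 to 51833290, minus strand), passed in the 3 comparisons that involve CEBPG knockouts and in no other. Levels in the controls were 17.0, 17.3, 21.2 and 13.2 CPM. The CEBPG libraries, at 32.1, 39.6, 31.5 and 40.2 CPM, were all above every other library. Satb1 rose by 1.06 in CEBPG knockouts (2.09-fold, SE 0.20, adjusted p = 0.000191). The ATF3 libraries (18.3, 22.1, 22.8, 15.4 and 21.3 CPM), ATF4 libraries (19.3 and 20.5 CPM) and CHOP libraries (23.1, 19.8, 25.6, 19.0 and 28.0 CPM) overlapped the controls, with log2 differences of 0.22 (SE 0.19, adjusted p = 0.414), 0.21 (SE 0.24, adjusted p = 0.558) and 0.43 (SE 0.19, adjusted p = 0.0882). Within batch 3 the ATF3 group was 0.84 lower than CEBPG (log2 difference -0.84, SE 0.18, adjusted p = 0.00184) and CEBPG was 0.64 higher than CHOP (SE 0.18, adjusted p = 0.0124). From CEBPG replicates 9 and 10 alone the 3 values were 1.09 against control (adjusted p = 0.000946), -0.85 (adjusted p = 0.0115) and 0.67 (adjusted p = 0.0366). The T and NK cell genes were highest in the same CEBPG libraries, as given for Eomes, and their part in the Satb1 difference was not tested either.

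Foxp2, the forkhead factor of F-type cells (chromosome 6, 14901349 to 15441977, plus strand), varied widely between libraries of the same group and passed in no comparison. It was at 0 in 5 of the 20 libraries. The controls had 7.92, 0, 0 and 2.86 CPM, a range that took in every library but CEBPG replicate 6. ATF3 libraries had 0, 1.33, 0.986, 0.364 and 1.17 CPM, ATF4 libraries 1.04 and 3.0, CEBPG libraries 9.93, 0, 0 and 0.0478, and CHOP libraries 1.61, 0.816, 5.77, 2.39 and 0.666. The standard errors of its log2 differences against control, 1.51 to 2.0, exceeded the differences in ATF4, CEBPG and CHOP knockouts (-0.42, -0.15 and -0.27), and in ATF3 knockouts the difference was -1.81 (SE 1.53, adjusted p = 0.401). The CEBPG value rested on replicate 6. Without it the CEBPG group was lower than control (-7.003, adjusted p = 0.0111) and than CHOP (-6.74, adjusted p = 0.0179), fitted values that depend on libraries with no or nearly no reads. With this spread between libraries a change in Foxp2 was not detectable.

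Ebf3 and Neurod2 were higher in most knockouts, each most in a different one. Ebf3 (chromosome 7, 137193673 to 137314445, minus strand) was at 5.67, 4.7, 3.32 and 2.68 CPM in the controls. The CHOP libraries had 21.6, 29.2, 33.8, 42.4 and 43.3 CPM, the highest group. ATF3 libraries followed with 20.03, 19.2, 12.8, 21.7 and 17.8 CPM and ATF4 libraries with 19.7 and 13.6 CPM, none of them overlapping the controls. CEBPG libraries ran from 3.99 CPM in replicate 8, inside the control range, through 8.81 and 10.3 to 17.6 CPM in replicate 10. Ebf3 rose by 3.06 in CHOP (8.37-fold, SE 0.36, adjusted p = 4.26e-07), by 2.17 in ATF3 (SE 0.35, adjusted p = 3.52e-05), by 2.03 in ATF4 (SE 0.41, adjusted p = 0.000523) and by 1.33 in CEBPG knockouts (SE 0.36, adjusted p = 0.00552). The CEBPG call was lost when only CEBPG and control libraries were fitted (1.28, adjusted p = 0.0906). From CEBPG replicates 9 and 10 alone the rise was 1.81 (adjusted p = 0.000213).

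Between knockouts, Ebf3 was lower in CEBPG than in CHOP (-1.74, SE 0.33, adjusted p = 0.000375), with all CEBPG libraries below all CHOP libraries, and by -1.26 (adjusted p = 0.0101) from CEBPG replicates 9 and 10 alone. ATF3 against CHOP did not pass (-0.90, SE 0.30, adjusted p = 0.137), a difference that passed when only these groups were fitted (adjusted p = 0.00966). ATF3 and CEBPG did not pass either (0.84, SE 0.32, adjusted p = 0.0662), and did without CEBPG replicate 10 (1.25, adjusted p = 0.00808). The order of the amacrine genes (12 genes) was like that of Ebf3: they summed to 0.0855% to 0.136% of reads in controls, 0.182% to 0.234% in CEBPG, 0.299% to 0.325% in ATF4, 0.336% to 0.354% in ATF3 and 0.414% to 0.471% in CHOP knockouts. Of these 12 genes 9 rose in ATF3, 9 in ATF4, 8 in CEBPG (1 fell) and 9 in CHOP knockouts, and 8 were lower in CEBPG than in CHOP knockouts. Slc18a3, a defining gene of starburst amacrine cells, was at 0 in all CEBPG libraries and low in controls too (1.77 ± 0.686 CPM, SD, n = 4). Chat, also of these cells, was at 0.731 to 2.66 CPM in CEBPG libraries and 3.71 ± 1.75 CPM (SD, n = 4) in controls. In ATF3, ATF4 and CHOP knockouts Chat was at 1.05, 0.0811 and 0.713 CPM and Slc18a3 at 1.1, 1.11 and 0.959 CPM. Both means were thus below control in every knockout, against the direction of most amacrine genes. In ATF3, ATF4 and CHOP knockouts these lower levels did not pass. Whether amacrine cells carry part of the Ebf3 difference was not tested.

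Neurod2 (chromosome 11, 98325415 to 98329648, minus strand) was highest in ATF4 knockouts. The controls had 13.7, 14.4, 18.9 and 7.06 CPM and the ATF4 libraries 63.6 and 55.2 CPM, above every other library. The log2 rise in ATF4 knockouts was 2.14 (4.40-fold, SE 0.26, adjusted p = 1.86e-06). The ATF3 libraries had nearly the same level in all 5, with 23.9, 25.3, 23.7, 24.6 and 24.3 CPM, and lay above the controls (0.85, SE 0.22, adjusted p = 0.00383). CEBPG libraries, at 18.7, 23.2, 22.6 and 27.2 CPM, passed with 1 library inside the control range (0.77, SE 0.23, adjusted p = 0.0113). The CEBPG call was lost without control replicate 8, the lowest control (0.52, adjusted p = 0.0549), and when only CEBPG and control libraries were fitted (0.73, adjusted p = 0.111), and from CEBPG replicates 9 and 10 alone it was 0.91 (adjusted p = 0.0103). CHOP libraries, at 21.5, 15.3, 23.2, 17.5 and 20.2 CPM, did not pass (0.53, SE 0.22, adjusted p = 0.063). They did pass once control replicate 7 was left out (0.73, adjusted p = 0.0155) or CHOP replicate 2 (0.59, adjusted p = 0.0465). Scaled to the sum of the genes common to ganglion cells, the rise no longer passed in ATF3 (0.30, adjusted p = 0.361) and CEBPG knockouts (0.66, adjusted p = 0.065). That sum is led by Nefl, with the limit given for Tbr1. Among the knockouts of batch 3 no Neurod2 difference passed (adjusted p = 0.823, 0.574 and 0.455 for ATF3 against CEBPG, ATF3 against CHOP and CEBPG against CHOP), although all 5 ATF3 libraries lay above all 5 CHOP libraries (log2 difference 0.32, SE 0.20). Amacrine genes moved in the comparisons against control as given for Ebf3, and their part was not tested.

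**Figure D2:**
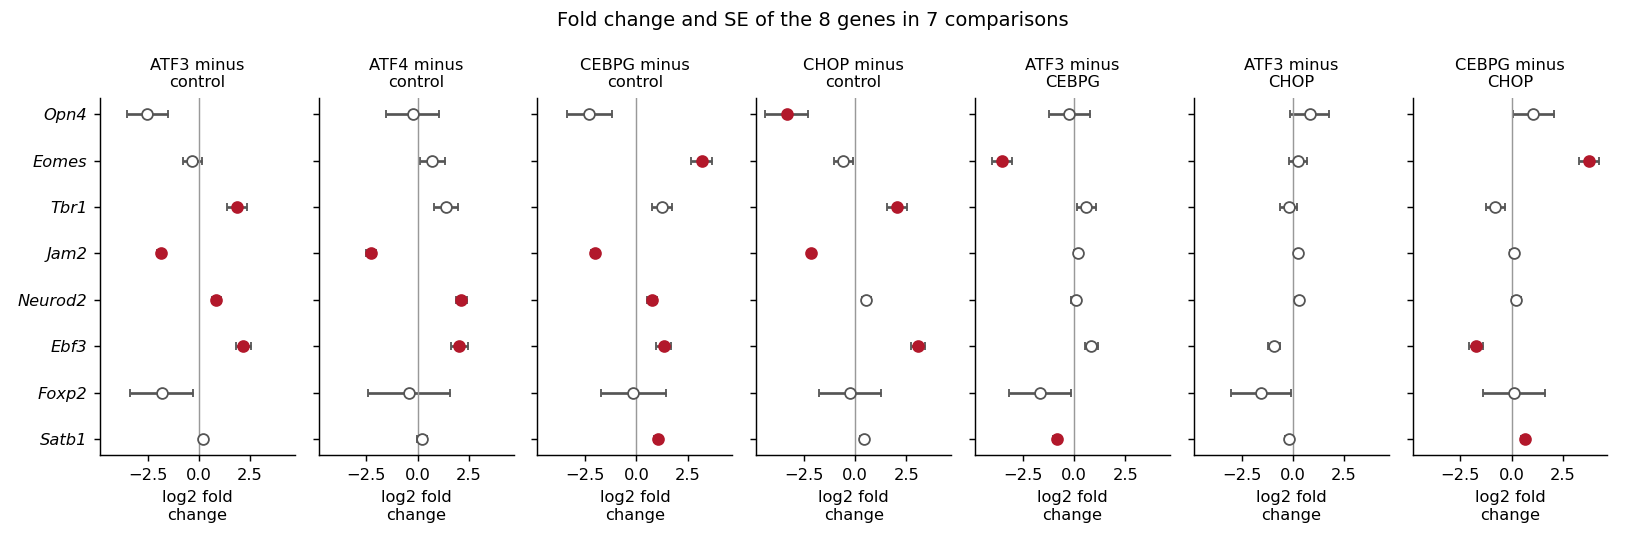
Log2 difference of each of the 8 genes in the 4 comparisons against control and the 3 among knockouts of batch 3, with bars for 1 standard error and filled red points where the adjusted p is below 0.05. Jam2 lies between -2.27 and -1.86 in all 4 knockouts, Ebf3 between 1.33 and 3.06, and the bars of Foxp2 and Opn4 are the widest.

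Counted together, 4 of the 8 members passed in ATF3 knockouts against control, where 33.4% of all genes tested passed: Tbr1, Neurod2 and Ebf3 rose (18.6% of all genes did) and Jam2 fell (14.8%). In ATF4 knockouts (31.3% of all genes passed) Neurod2 and Ebf3 rose (16.6%) and Jam2 fell (14.6%). In CEBPG knockouts (33.4%) Eomes, Neurod2, Ebf3 and Satb1 rose (18.3%) and Jam2 fell (15.0%). In CHOP knockouts (33.5%) Tbr1 and Ebf3 rose (18.1%) and Opn4 and Jam2 fell (15.4%). The members' groups did not overlap for 5 genes in ATF3, 4 in ATF4, 3 in CEBPG and 4 in CHOP knockouts, against 34.3%, 44.8%, 26.9% and 28.9% of all genes. Ebf3 was the only member called higher in all 4 knockouts, as were 5.14% of all genes, and Jam2 the only one called lower in all 4, as were 5.68%. The median log2 difference of the 8 genes was -0.05, 0.47, 0.91 and 0.08 in ATF3, ATF4, CEBPG and CHOP knockouts, beside 0.06, 0.00, 0.06 and 0.01 over all genes. Among knockouts of batch 3, Eomes and Satb1 were lower in ATF3 than in CEBPG knockouts, where 20.4% of all genes passed, 10.1% higher and 10.2% lower. Eomes and Satb1 were higher and Ebf3 lower in CEBPG than in CHOP knockouts, where 26.7% passed, 13.5% higher and 13.2% lower. The groups of 2, 1 and 3 members did not overlap in ATF3 against CEBPG, ATF3 against CHOP and CEBPG against CHOP, beside 22.3%, 8.06% and 21.2% of all genes. Between ATF3 and CHOP knockouts 0 of 8 passed in edgeR and 0 in DESeq2, with 1 (Ebf3) at an unadjusted p under 0.05, where 2.26% of all genes passed in edgeR. Scaling to the genes common to ganglion cells moved the median of all genes by -0.54, -0.21, -0.08 and -0.41 in the 4 comparisons against control and by -0.45, -0.13 and 0.32 in ATF3 against CEBPG, ATF3 against CHOP and CEBPG against CHOP. The calls of all genes then went from 3125 higher and 2481 lower to 1145 and 6139 in ATF3, from 2794 and 2457 to 1422 and 3085 in ATF4, and from 3036 and 2589 to 1555 and 5201 in CHOP knockouts. Among knockouts they went from 1701 and 1718 to 433 and 5038 in ATF3 against CEBPG, from 253 and 127 to 121 and 146 in ATF3 against CHOP, and from 2264 and 2214 to 3716 and 696 in CEBPG against CHOP. The members' calls in ATF3 against CEBPG and in CEBPG against CHOP knockouts kept their direction under that scaling.

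**Figure D3:**
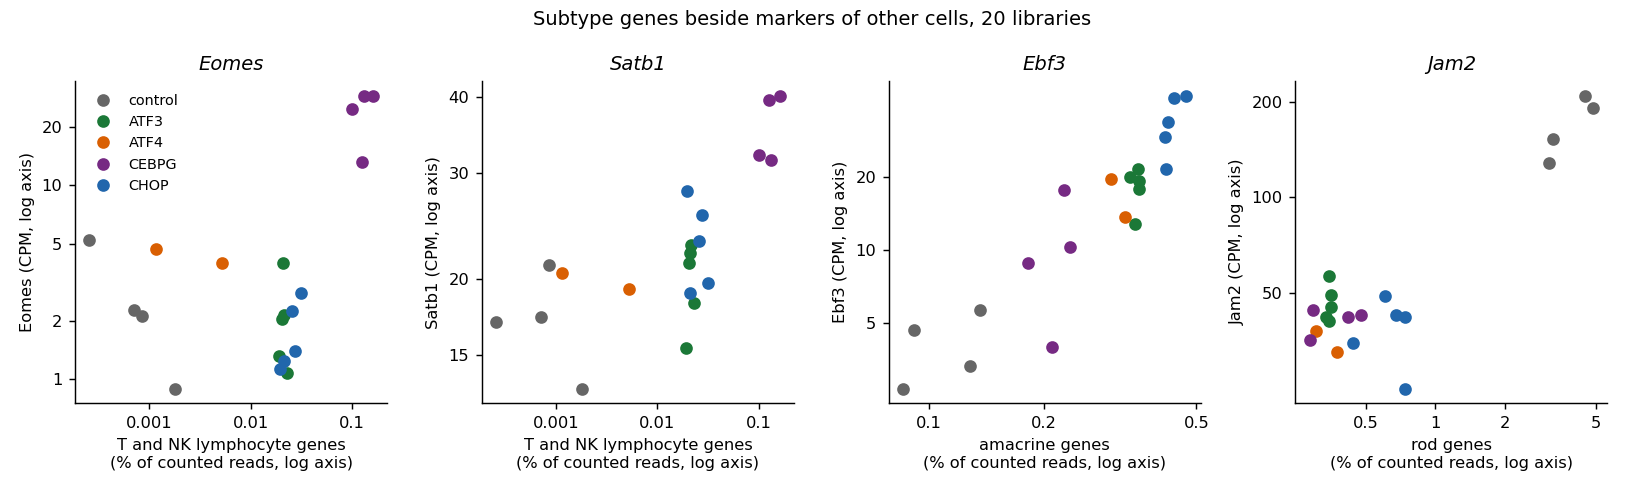
Level of 4 members (CPM) against the summed level of marker genes of another cell type in the same library (percent of reads), both on log axes, 1 point per library and colours for groups. The CEBPG libraries, with 0.1001% to 0.162% of reads from T and NK cell genes, have the highest Eomes and Satb1, CHOP libraries, with 0.414% to 0.471% from amacrine genes, the highest Ebf3, and controls, with 3.12% to 4.85% from rod genes, the highest Jam2.

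Compared per kilobase of exon, the order of the members differed between groups. In controls Jam2 led with 28.2 ± 6.04 CPM per kb (SD, n = 4), followed by Opn4 with 8.22 ± 5.62 and Neurod2 with 4.3 ± 1.55. The ranges of Opn4 and Neurod2 overlapped, while Jam2 was above both in every control. Satb1 (0.903 ± 0.171), Eomes (0.632 ± 0.442), Ebf3 (0.443 ± 0.146), Tbr1 (0.29 ± 0.128) and Foxp2 (0.165 ± 0.229) came after them, each overlapping its neighbour in that order. In ATF3 knockouts Neurod2 (7.75 ± 0.197, n = 5) and Jam2 (7.73 ± 1.05) led and overlapped. Ebf3 had the third mean at 1.98 ± 0.368, with its range (1.39 to 2.35) inside that of Opn4 (0.346 to 2.79). In ATF4 knockouts Neurod2 led with 18.9 ± 1.9 (n = 2), above Opn4 at 6.92 ± 1.15 and Jam2 at 5.84 ± 0.645, whose ranges overlapped. CEBPG knockouts had Neurod2 at 7.29 ± 1.1 (n = 4), Jam2 at 6.82 ± 0.63 and Eomes at 5.75 ± 1.79, with overlapping ranges. In CHOP knockouts Jam2 (6.39 ± 1.5, n = 5) and Neurod2 (6.21 ± 1.01) overlapped, and the range of Ebf3 (3.69 ± 0.992) lay below that of Neurod2 and above those of Satb1, Tbr1, Opn4, Eomes and Foxp2. Foxp2 was the lowest in all 5 groups. These levels use the full exon length of the annotation, and a 3' bias of the libraries was not measured. Short stretches of Opn4 (130 exon bases), Eomes (118), Ebf3 (355) and Satb1 (128) lie opposite an antisense gene, 0.67% to 4.39% of their exon bases, and without strand information reads there cannot be told apart.

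Over the 20 libraries, the genes whose log2 CPM followed each member most closely differed from member to member. These correlations are descriptions over libraries that share group, batch and depth. For Jam2 they were Kpna2, Galnt7 and Arl6, each with r = 0.95, and Kpna2 fell from 361 ± 63.8 CPM (SD, n = 4) in controls to 58.8 ± 3.2 (SD, n = 5) in ATF3 knockouts. Eomes was followed by Slc9a3r1 and the MHC class I genes H2-K1 and H2-Q5 (each r = 0.91), and H2-K1 was at 1460 ± 115 CPM (SD, n = 4) in CEBPG knockouts and 572 ± 109 (SD, n = 4) in controls. Satb1 was followed by Dopey2 (r = 0.91), Nfkb2 (0.88), a subunit of NF-kappa-B, and Trim12a (0.88). Ebf3 was followed by Zfp385c and Chn1os3 (r = 0.94) and Atp1b1 (0.93), a sodium pump subunit. Neurod2 was followed by Rheb (r = 0.91), an activator of mTOR, Mapk3 (0.90) and Arf5 (0.89). Tbr1 was followed by Hnrnpa3 (r = 0.89), Usp29 (0.87) and Slc4a8 (0.86), and Opn4 by Nr1h4 (0.86), Fkbp10 and Sema4c (0.84). For Foxp2 the highest values were lower, 0.73 for B230216N24Rik and 0.69 for 1700013F07Rik and Fam73b, in counts that are sparse. Among the members themselves, Eomes and Satb1 had the highest Pearson r (0.73, Spearman rho 0.51, 20 libraries) and Jam2 and Ebf3 the lowest (-0.73, rho -0.54). Eomes and Opn4 had r = -0.26 and rho 0.10, and Tbr1 and Jam2 r = -0.70 and rho -0.50.

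A further 40 genes listed for ganglion cell types, of which 39 were tested, were described in the same comparisons. In ATF3 knockouts 14 rose (18.6% of all genes did) and 0 fell (14.8%), led by Igf1, a growth factor of alpha cells (log2 rise 1.74, SE 0.18), Cartpt, a neuropeptide precursor of direction-selective cells (1.42, SE 0.18), and Kcnip2, a potassium channel subunit (1.05, SE 0.15). In ATF4 knockouts 6 rose (16.6% of all genes) and 0 fell (14.6%), with Cartpt (2.02, SE 0.22) and Kcnip2 (1.53, SE 0.19). In CEBPG knockouts 12 rose (18.3% of all genes), with Igf1 (1.35, SE 0.18), Rasgrp1 (2.17, SE 0.34), a Ras activator also used in T cells, and Kcnip2 (0.93, SE 0.16), and 4 fell (15.0%), with Spon1 (-1.01, SE 0.18) and the alpha-cell channel gene Kcng4 (-1.11, SE 0.32). Isl2 fell to 0 in all 4 CEBPG libraries from 1.33 ± 0.723 CPM (SD, n = 4) in controls. The control mean was 34.9-fold above 3 reads summed over the CEBPG group, a bound for counting error only. In CHOP knockouts 14 rose (18.1% of all genes), with Igf1 (2.10, SE 0.18), Kcnip2 (1.25, SE 0.15) and Lypd1 (1.79, SE 0.26), and 4 fell (15.4%), with Lmo2 (-0.74, SE 0.19). Tbx20, of the photosensitive cells, was at 0 in all 5 CHOP libraries and 0.848 ± 0.895 CPM in controls. By the same kind of bound the control mean was 32.2-fold higher, although 0 also lies within the control range. The median log2 difference of the list was 0.23, 0.59, 0.33 and -0.03 in ATF3, ATF4, CEBPG and CHOP knockouts, beside the medians of all genes given above.

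Between knockouts of batch 3 the same list passed for 8 higher and 4 lower in ATF3 against CEBPG (10.1% and 10.2% of all genes), 1 higher and 1 lower in ATF3 against CHOP (2.26% of all genes in either direction), and 7 higher and 9 lower in CEBPG against CHOP (13.5% and 13.2%). Cartpt was at 254 ± 43.9 CPM (SD, n = 5) in ATF3, 100.5 ± 27.7 (SD, n = 4) in CEBPG and 184 ± 25.2 (SD, n = 5) in CHOP knockouts, and passed in both comparisons with CEBPG (log2 difference 1.34, SE 0.18, for ATF3 against CEBPG, and -0.87, SE 0.18, for CEBPG against CHOP). Kcng4 was higher in ATF3 than in CEBPG (2.01, SE 0.31) and CHOP knockouts (1.67, SE 0.28). Isl2 was at 0.717 ± 0.481 CPM (SD, n = 5) in ATF3 and 0.672 ± 0.293 (SD, n = 5) in CHOP knockouts, and at 0 in CEBPG knockouts. These means were 18.8-fold and 17.6-fold above 3 reads summed over the CEBPG group, a bound for counting error only. The lowest ATF3 library was at 0.0782 CPM. Spp1, which encodes osteopontin, was higher in CEBPG than in CHOP knockouts (4.59, SE 0.72) and lower in ATF3 than in CEBPG knockouts (-2.47, SE 0.66). Anxa3 was likewise higher in CEBPG than in CHOP knockouts (1.19, SE 0.16) and lower in ATF3 than in CEBPG knockouts (-0.78, SE 0.16), and Spon1 was lower in CEBPG than in CHOP knockouts (-0.97, SE 0.17). Igf1 and Spp1 are also made by microglia and macrophages, whose genes (10 listed microglial genes) summed to 0.572% to 0.669% of reads in CEBPG and 0.323% to 0.468% in CHOP knockouts. Spp1 went the same way as these sums, whereas Igf1 was lower in CEBPG than in CHOP knockouts (83.9 ± 11.1 against 142 ± 32.4 CPM, SD, n = 4 and 5, log2 difference -0.76, SE 0.17, adjusted p = 0.00172). The part of those cells was not tested.

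**Figure D4:**
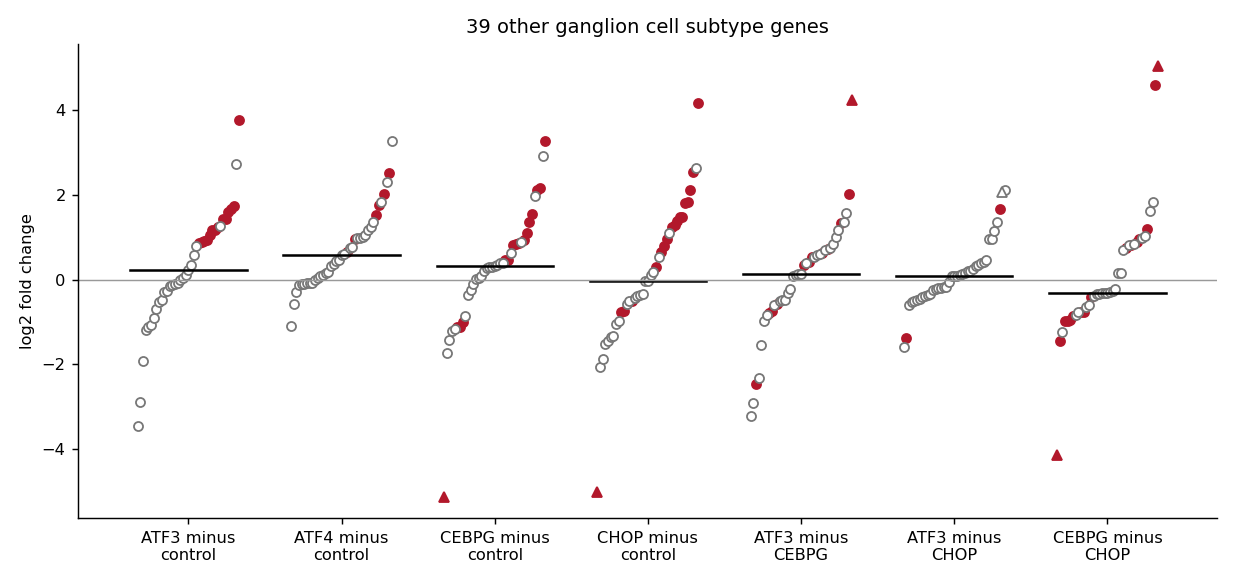
Log2 difference of the 39 other ganglion cell type genes tested in each of the 7 comparisons, sorted by size, with filled red symbols where the adjusted p is below 0.05, triangles at the bound for genes at 0 in a group and a line at the median. Against control, rises number 14, 6, 12 and 14 and falls 0, 0, 4 and 4 in ATF3, ATF4, CEBPG and CHOP knockouts.

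The authors' deposited table of 17100 genes gives its own fold changes, with a model and a reference group not given in the sources used here. In the authors' deposited table Jam2 had log fold changes of -2.07, -1.95, -2.03 and -2.37 in ATF3, ATF4, CEBPG and CHOP knockouts, with FDR 0.00035, 0.0083, 1.66e-06 and 0.000577. For Ebf3 the authors' deposited table gives 2.47 (FDR 0.0264), 1.77 (FDR 0.223), 1.71 (FDR 0.0111) and 3.40 (FDR 0.0108). In CEBPG knockouts the authors' deposited table gives 4.10 for Eomes (FDR 4.61e-05) and 1.46 for Satb1 (FDR 0.000491). Opn4 and Tbr1 have no FDR under 0.05 in the authors' deposited table, where Opn4 in CHOP knockouts is at -1.56 (FDR 0.836) and Tbr1 at 0.68 in ATF3 (FDR 0.762) and 0.63 in CHOP knockouts (FDR 0.823). For Neurod2 the authors' deposited table gives 0.10 in ATF3 (FDR 0.945), 1.61 in ATF4 (FDR 0.115), 0.29 in CEBPG (FDR 0.58) and -0.18 in CHOP knockouts (FDR 0.92). Its signs differ from those here for 7 of the 32 member values, none of which passed in either. Since its reference group is not stated, the values may not be for the same comparison.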

How the data were processed

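RNA sequencing libraries were made with SMART-Seq v4 from FACS-sorted retinal ganglion cells after papain dissociation, per the labels' protocols. How cells were gated is not stated there. The deposited counts are raw reads of 17164 genes in 21 libraries. The submitters' processing notes name, with no versions, STAR, Picard, HTSeq, edgeR and mm10. No source used here gives the annotation, the counting settings or the strand. A deposited table of the authors' comparisons holds p-values, FDR values and log fold changes, read here as log2. The authors' sample sheet gives batch, sex, age and the fraction of duplicate read pairs per library, which ran from 48.0% to 57.6% as percent. A further 42 columns of that sheet were not used.

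Groups follow the sample titles. The library whose title says control and whose genotype label says CHOP knockout entered no group. The labels do not say whether replicate libraries are separate animals, and p-values measure only the spread between libraries, possibly technical. Within groups no library was a copy of another: the 33 pairs had chi-square values per gene of 12.9 to 64.6 over genes with at least 20 reads.

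Counts were fitted in R 4.3.3 with edgeR 4.0.16 (filterByExpr with minimum count 10, which kept 16797 genes and removed 367, TMM scaling, robust glmQLFit of 20 libraries in 5 groups, 15 residual degrees of freedom, glmQLFTest for 7 contrasts). Genes with an adjusted p (Benjamini-Hochberg, over all genes tested) below 0.05 were called. CPM are TMM-scaled, with a prior count of 2 where log2 is taken. Standard errors follow from the test statistic. Genes at 0 in a group are bounded by 3 reads, a limit for counting error alone, as reads without molecular identifiers are not independent. Exon lengths and coordinates come from GENCODE M21 of the same build. The edgeR step was tested on simulated data. Alternatives were DESeq2 1.42.0, other scalings, no filter, fits of fewer groups, a replicate block and leaving out each library. The members and lists were chosen with earlier results of these data known. Named genes are all 8 members, up to 3 called genes per direction and comparison of the other listed genes by adjusted p, and the 3 genes most correlated with each member. Some genes named by this rule are not reported here.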

Additional observations from a re-analysis of the deposited data

Results flagged for a closer look

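Foxp2 in CEBPG replicate 6 was at 9.93 CPM, far from the other 3 libraries of its group, which lay between 0 and 0.0478 CPM. This was 1 of the 32 combinations of member and group examined for a far library, and chance gives about 1 in 20. The title of 1 library calls it a control and its genotype label a CHOP knockout, and it entered no comparison. In that library Tbr1 was at 2.53 CPM, above the highest control at 2.43, and Neurod2 was at 31.2 CPM, above the highest control at 18.9.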

How the results depend on the processing

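All calls of Jam2 against control and the 3 calls of Eomes kept their side of the threshold under every alternative run. Among all genes, the replicate block gave 1322, 3081 and 2719 calls against control in ATF4, CEBPG and CHOP knockouts, 1895 for ATF3 against CEBPG, 11 for ATF3 against CHOP and 517 for CEBPG against CHOP, where 5251, 5608, 5625, 3419, 380 and 4478 were called without it. Replicate numbers gave no sign of pairing the libraries: deviations of same-numbered libraries had r from -0.034 to 0.0264 over 10 pairs, with 0 over 0.1. Only the 3 pairs of ATF3 with CEBPG libraries lay within a batch (r from 0.0019 to 0.0202). Pairs across batches could hardly show a pairing. Under the block 3 subtype genes passed for CEBPG and 2 for CHOP against control, in place of 5 and 4. It moved Opn4 (CHOP, adjusted p = 0.139), Tbr1 (CHOP, 0.0719), Neurod2 (CEBPG, 0.11), Ebf3 (CEBPG, 0.275) and Satb1 (CEBPG against CHOP, 0.546) past the threshold and Ebf3 (ATF3 against CEBPG, 0.024) below it. Signs under the block turned for Foxp2 in ATF4 (0.51) and CHOP (1.30) against control, ATF3 against CEBPG (3.11) and CEBPG against CHOP (-6.37), for Opn4 in ATF3 against CHOP (-0.081) and for Jam2 in CEBPG against CHOP (-0.15). Fitting only the groups compared gave 1232 calls for ATF3 against CHOP with 1 subtype gene in place of 0, and 3 subtype genes for CEBPG against control. DESeq2 gave 676 for ATF3 against CHOP and passed Tbr1 in CEBPG against control (adjusted p = 0.0274). Scaling to the genes common to ganglion cells gave 5471 calls for ATF3 against CEBPG, passed Opn4 in ATF3 against control (-3.10, adjusted p = 0.0297) and turned Satb1 in ATF3 (-0.33) and ATF4 (-0.037), Foxp2 in CEBPG (0.11), and Jam2 (-0.27) and Neurod2 (-0.36) in ATF3 against CEBPG. An alternative chosen after seeing the data kept only CEBPG libraries 9 and 10, since 6 and 8 stand apart on the fourth component. Libraries 9 and 10 stand apart on the fifth. It passed Tbr1 (1.51, adjusted p = 0.0377) and Foxp2 (-6.63, adjusted p = 0.0382) in CEBPG against control and turned Neurod2 (-0.041) and Foxp2 (4.83) in ATF3 against CEBPG and Foxp2 in CEBPG against CHOP (-6.35). The cause of these changes was not tested.

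Leaving out each library in turn, calls of all genes ran from 4586 to 5479 for ATF3, from 3358 to 5592 (ATF4), from 4840 to 5530 (CEBPG) and from 4731 to 5468 (CHOP) against control, from 2781 to 3438 for ATF3 against CEBPG, from 232 to 353 for ATF3 against CHOP and from 3792 to 4345 for CEBPG against CHOP. The lowest ATF4 count is without ATF4 replicate 1, which leaves 1 library taken to vary like the other groups, and the lowest ATF3 against CHOP count is without CHOP replicate 4. Subtype genes called stayed at 4 and 3 for ATF3 and ATF4 against control and ran from 4 to 7 for CEBPG and 4 to 5 for CHOP, from 2 to 3 for ATF3 against CEBPG and from 3 to 4 for CEBPG against CHOP. Signs turned within these ranges: Eomes -0.69 to 0.27 in ATF3 and -0.91 to 0.015 in CHOP against control and -0.095 to 0.51 in ATF3 against CHOP, Opn4 -0.57 to 0.27 in ATF4 against control and -0.64 to 0.47 in ATF3 against CEBPG, Jam2 -0.014 to 0.21 in CEBPG against CHOP. Foxp2 ran from -1.38 to 1.05 in ATF4, -7.003 to 1.33 in CEBPG and -1.002 to 1.21 in CHOP against control, -2.08 to 5.19 in ATF3 against CEBPG and -6.74 to 0.85 in CEBPG against CHOP. The spread between libraries limits Foxp2 and Opn4, and 2 libraries limit every ATF4 value.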

Other observations

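In the library whose title and genotype label contradict each other, from batch 4 in the sample sheet, Jam2 was at 146 CPM and Ebf3 at 2.65 CPM. Opn4 was at 7.16, Eomes at 1.88, Satb1 at 10.3 and Foxp2 at 0.339 CPM. Its rod genes made up 0.604% of reads, its amacrine genes 0.0618%, its T and NK cell genes 8.61e-05%, its cone genes 1.11%, its microglial genes 1.12% and the genes common to ganglion cells 0.0147%.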
